A study of Mus musculus with 6 samples.

Results

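The genes described here are the replication-dependent histone genes, the clustered genes that supply the bulk of histone protein while DNA is copied. They were taken as every symbol that starts with Hist1h, Hist2h, Hist3h or Hist4h, which gave 68 genes of the 23183 symbols in the expression tables. By symbol, 6 belong to the linker histone H1, 18 to H2A, 19 to H2B, 12 to H3 and 13 to H4. The H2B group includes the pseudogene Hist3h2bb-ps. The tables came from RNA sequencing of sorted CD4+CD8+ double-positive (DP) thymocytes, the intermediate cells from which CD4 and CD8 T cells arise, of 6-week-old C57BL/6 mice. In the WT group (Nsrp1f/f, 3 libraries) both alleles of Nsrp1 carried loxP sites and no Cre was present. In the cKO group (Nsrp1f/fCD4Cre, 3 libraries) the same floxed alleles were combined with a Cre transgene driven by the CD4 promoter, which is active from about the DP stage on and stays on in the T cells that follow. Nsrp1 encodes NSrp70, a splicing regulator of nuclear speckles. The question put to these genes was how their RNA level differed between WT and cKO DP thymocytes.

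Replication-dependent histone genes are short, nearly always without introns, and their mRNA is the only known class of metazoan mRNA that normally ends in a conserved stem-loop in place of a poly(A) tail. Stem-loop binding protein and the U7 small nuclear ribonucleoprotein direct the cut after the stem-loop, and the mRNA is made in S phase and degraded when DNA synthesis stops. A minority of these genes also has a poly(A) signal further downstream and makes polyadenylated mRNA, mainly in cells that have stopped dividing. DP thymocytes arise from proliferating precursors and then become small resting cells. Since the libraries were enriched for poly(A) RNA, the values here are those of histone RNA that passed this enrichment.

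The level was FPKM, in which the fragments of a gene are divided by its transcript length and by the mapped fragments of the library. Poly(A) enrichment can recover genes with and without a poly(A) signal unequally, and the value depends on the transcript length used. Rankings of genes by level and class shares are therefore those of FPKM only. Nsrp1, listed under its older symbol Ccdc55, was at 20.2, 20.7 and 21.1 FPKM in the WT libraries and at 17.7, 15.8 and 15.0 in the cKO libraries (log2 fold change -0.34 ± 0.08, SE, n = 3 per group, limma, adjusted p = 0.00675). The depth estimated from the steps between low values was 20.7 to 20.8 M fragments in WT and 13.1, 20.5 and 17.4 M fragments in cKO 1, cKO 2 and cKO 3. This estimate assumed fragments of 200 bases, and it was least distinct from the next best value in cKO 2 and cKO 3. By it the library cKO 1 was the shallowest. The same library stood apart from cKO 2 and cKO 3 in the histone genes, so class medians and the changes of named members are given with and without it. Among well-covered genes the WT libraries differed from each other by 1.51 to 1.67 times the counting noise and the cKO libraries by 28.7 to 62.2 times, and nothing in the labels said that libraries of a group came from separate animals, so counts are also given with WT treated as 1 sample and p-values measure only the spread between these libraries. Xist was at 69.8 to 72.0 FPKM in WT and 4.07 to 5.44 in cKO, and Ddx3y was listed at 0 in WT and at 26.2 to 35.0 in cKO, so that sex and genotype cannot be told apart in these libraries. Of 10 DP thymocyte markers all 10 passed the filter on low values.

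The 3′ ends are shown first, because they decide which histone RNA can carry a poly(A) tail. In the annotation of the mm10 assembly (GENCODE M21), 63 of the 68 genes had a single exon, and 46 of 68 (67.6%) held the consensus stem-loop (a stem of 6 bases and a loop of 4, read on the transcript strand only) in an annotated transcript, against 25 of 22745 other symbols (0.11%). Some annotated transcripts are short, such as 312 bases in Hist1h4k and 381 in Hist2h2bb, and may end before a stem-loop or poly(A) signal. Genes in which none was found are therefore not shown to lack one. The most frequent form, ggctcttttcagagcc, was found in 26 genes, and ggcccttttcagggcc in 7. The stem-loops of 6 genes on which the comparisons turn are given from 5′ to 3′ on the strand of the gene, with the stem-loop in capitals and 5 bases on each side.
Hist1h1d: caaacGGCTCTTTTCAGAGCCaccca
Hist1h3c: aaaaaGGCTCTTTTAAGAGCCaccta
Hist1h4f: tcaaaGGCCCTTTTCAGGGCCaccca
Hist1h4i: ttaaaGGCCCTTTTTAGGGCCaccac
Hist3h2a: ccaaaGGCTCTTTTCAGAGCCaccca
Hist3h2ba: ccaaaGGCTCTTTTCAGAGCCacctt
These lie at chr13:23555782-23555807 (+), chr13:23745042-23745067 (-), chr13:23551286-23551311 (-), chr13:22040961-22040986 (-), chr11:58955167-58955192 (+) and chr11:58949344-58949369 (+), each in the only annotated exon of its gene. The annotated transcript of Hist1h4f ran on for 33 bases past the stem-loop, that of Hist1h4i for 330 and that of Hist3h2a for 1643. A poly(A) signal (AATAAA or ATTAAA, starting within 40 bases of an annotated transcript end) was found in 17 of the 68 genes. The signals of 4 such genes are given with the signal in capitals, chosen after their values were seen, because the libraries of the cKO group were closest to each other in these 4 genes.
Hist3h2a: atatgcccAATAAAataagagtacgtgtat
Hist3h2ba: atggtattAATAAAtttggttcaattttgg
Hist1h4i: ctgtttacATTAAAagtattctatgctaa
Hist2h2be: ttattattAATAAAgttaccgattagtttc
They lie at chr11:58956789-58956818 (+), chr11:58949499-58949528 (+), chr13:22040636-22040664 (-) and chr3:96223709-96223738 (+), each near the annotated 3′ end of its gene, in its only exon.

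Histone RNA in these poly(A)-enriched libraries was higher in cKO in all 5 classes. Of the 68 genes, 56 passed the filter of at least 1 FPKM in 3 libraries, and 55 of these were called higher in cKO and 0 lower (limma, adjusted p of at most 0.0239 for each call), while Hist3h2ba was not called. Of these 56, Hist1h2ad, Hist1h2ah and Hist2h2ab were under 1 FPKM in all WT libraries and passed only through the cKO libraries. With at least 1 FPKM required in all 6 libraries, 49 of 50 members were called higher and 0 lower. Among all 10326 genes tested, 35.8% were called higher and 29.8% lower, so that a call alone was common. A fold change of at least 2 was not: 51 of the 56 members and 3.88% of all genes were called higher by that much. The median log2 fold change of the tested members was 2.38 on the log2(FPKM + 1) scale, against 0.04 over all genes tested. The shares of 35.8% and 29.8% also stand beside the counts below by class, cluster, poly(A) signal and unique windows. In a bulk sample, more cells in S phase and more histone RNA per cell cannot be told apart. A part of RNA without a poly(A) tail carried over into the libraries was not tested either, and sex differed together with genotype.

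Without cKO 1 the median of the members was 1.77 and 55 members were still called higher, beside 35.9% of all genes. When WT was entered as a single averaged sample, 19 members were called higher, beside 7.16% of all genes. After correction for GC content and length 52 were called higher, beside 32.1% of all genes, and with every library scaled to the same FPKM total 51, beside 8.74%. All 3 cKO libraries exceeded all 3 WT libraries in 57 of the 68 members, those under the filter included, and in 39.2% of the genes tested.

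**Figure D1:**
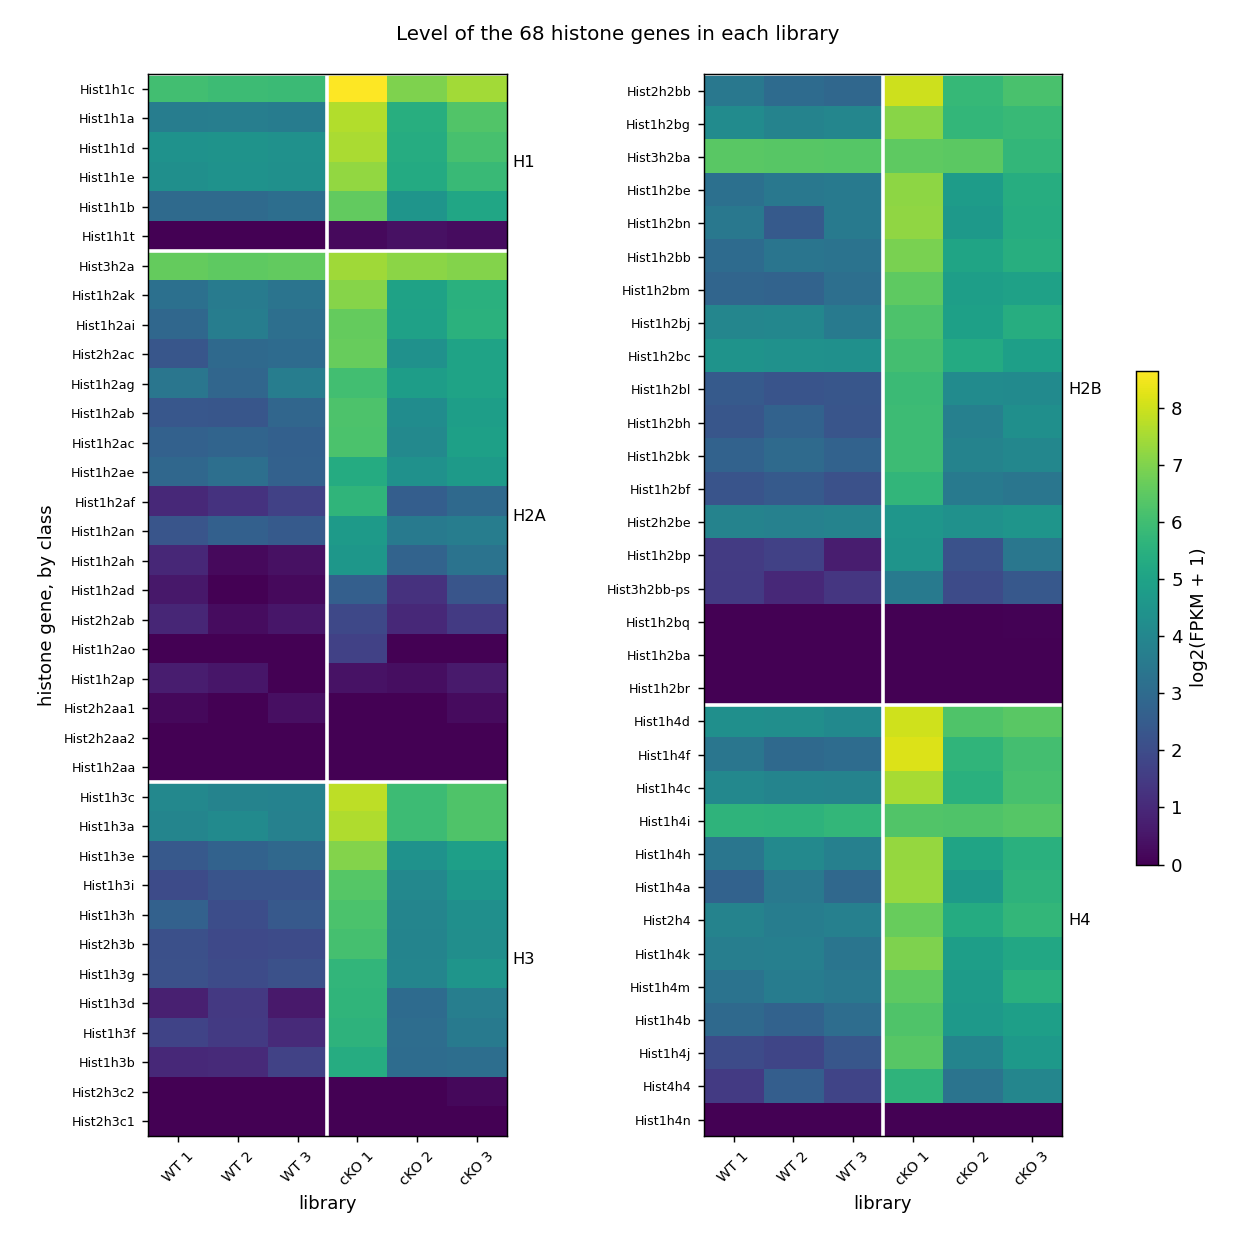
Level of the 68 histone genes (rows, ordered by cKO mean within each class) in the 6 libraries (columns), coloured by log2(FPKM + 1). The 3 WT libraries look alike, cKO 1 is the brightest column in most rows, and Hist3h2ba, Hist3h2a and Hist1h4i are bright in all 6 libraries.

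H1 linker histones bind the DNA between nucleosomes and compact the fibre. All 5 H1 genes that passed the filter rose in cKO, with log2 fold changes from 1.73 to 2.81 and a median of 1.94 (1.33 without cKO 1). Hist1h1c, the most abundant H1 gene in WT, was at 65.3, 59.6 and 58.8 FPKM in WT and at 402, 125 and 173 in cKO 1, 2 and 3. The groups did not overlap, and cKO 1 was more than 2 times as high as either other cKO library. Its log2 fold change of 1.73 ± 0.39 was the smallest of the class (adjusted p = 0.00637), and without cKO 1 it was 1.25. Hist1h1d was at 20.4, 20.9 and 19.7 FPKM in WT and at 186, 39.8 and 70.1 in cKO (log2 fold change 1.94 ± 0.49, adjusted p = 0.0109, and 1.33 without cKO 1).

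Hist1h1a, an H1 gene with no consensus stem-loop in its annotated transcript of 741 bases, rose most, from 11.6, 11.9 and 11.3 FPKM to 200, 42.3 and 78.9 (log2 fold change 2.81 ± 0.49, adjusted p = 0.00223, and 2.22 without cKO 1). It was below Hist1h1d in every WT library and above it in every cKO library. Hist1h1t, the testis-specific linker histone, was listed at 0 in WT and reached 0.30 FPKM at most in cKO.

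H2A pairs with H2B in the dimers at the outer faces of the nucleosome. All 13 tested H2A genes rose, with a median log2 fold change of 2.35 (1.61 without cKO 1). The range ran from 0.65 to 3.00, and the lower end was the gene that made up most of the class in WT. Hist3h2a, of the small Hist3 cluster, was at 96.8, 89.5 and 93.9 FPKM in WT and at 171, 140 and 133 in cKO. The cKO libraries lay above the WT libraries and close to each other, with cKO 1 at 1.22 times cKO 2. Its log2 fold change was 0.65 ± 0.11 (adjusted p = 0.00184, and 0.53 without cKO 1), and it was 0.09 (adjusted p = 0.519) when all libraries were scaled to the same FPKM total and 0.26 (adjusted p = 0.0631) after quantile normalization.

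Hist1h2ak, the next most abundant H2A gene, was at 8.17, 11.2 and 8.94 FPKM in WT and at 134, 30.6 and 43.8 in cKO (log2 fold change 2.47 ± 0.49, adjusted p = 0.00385, and 1.85 without cKO 1). Hist1h2ah had the largest change of the class, from 0.97, 0.16 and 0.32 FPKM in WT to 23.1, 5.68 and 8.83 in cKO (log2 fold change 3.00 ± 0.46, adjusted p = 0.00125, and 2.48 without cKO 1). The WT values of Hist1h2ah lie near the level that a handful of fragments gives, since 1 fragment on a transcript of 500 bases is worth about 0.16 FPKM at the WT depth. Hist1h2ah passed the filter only through the cKO libraries. Only 12.5% of the windows of 1 read length in its transcript are unique to it, so that its reads may be shared with other H2A genes. Hist2h2ab, named after its values were seen, went from 0.90, 0.23 and 0.45 FPKM to 2.65, 1.01 and 1.79. Its log2 fold change of 0.86 ± 0.25 (adjusted p = 0.018) was held down by the 1 added to such low values. As a ratio of mean FPKM the change was 3.46, and with 0.1 added in place of 1 the log2 fold change was 1.67. Hist2h2ab holds no poly(A) signal near an annotated end. Its call was lost after correction for GC content and length (adjusted p = 0.0625) and without WT 2, WT 3 or cKO 3 (adjusted p = 0.061, 0.052 and 0.0651).

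Of the 16 H2B genes tested, the pseudogene Hist3h2bb-ps included, 15 rose, and the median log2 fold change was 2.14 (1.55 without cKO 1). Hist2h2bb was at 10.02, 7.23 and 6.44 FPKM in WT and at 254, 54.3 and 71.8 in cKO. Every cKO library was at least 5 times as high as every WT library, and the log2 fold change was 3.52 ± 0.53 (adjusted p = 0.00125), the highest of the class, with 2.85 when cKO 1 was left out. Hist3h2ba was the most abundant H2B gene in WT, at 85.1, 83.6 and 81.5 FPKM, and stood at 89.0, 88.7 and 52.7 in cKO. The library cKO 3 was below the WT libraries and the other cKO libraries just above them. Its log2 fold change was -0.16 ± 0.19 (adjusted p = 0.499), and it was -0.29 without cKO 1, 0.09 without cKO 3 and -0.71 (adjusted p = 0.0283) with all libraries at the same FPKM total.

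A pair of further H2B genes with small changes is named here after their values were seen. Hist2h2be was at 13.5, 12.9 and 13.8 FPKM in WT and at 22.5, 19.9 and 21.9 in cKO (log2 fold change 0.64 ± 0.07, adjusted p = 0.000429). The cKO libraries were nearly level in this gene, with cKO 1 at 1.13 times cKO 2, and its change was 0.60 without cKO 1 and 0.11 (adjusted p = 0.263) at the same FPKM total. Hist1h2bc was at 20.8, 19.6 and 19.3 FPKM in WT and at 65.5, 38.4 and 28.7 in cKO (log2 fold change 1.03 ± 0.27, adjusted p = 0.0118, and 0.70 without cKO 1). Its change was 0.49 (adjusted p = 0.147) at the same FPKM total and 0.59 (adjusted p = 0.13) after correction for GC content and length.

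With 1 added to each FPKM value, H3 had the narrowest range of log2 fold changes of any class. All 10 tested genes rose, between 2.43 and 3.19 on this scale, with a median of 2.71 (2.11 without cKO 1). As ratios of mean FPKM the changes of H3 genes ran from 7.57 in Hist1h3a to 23.3 in Hist1h3d. Those of the tested H1 genes ran from 3.81 in Hist1h1c to 9.20 in Hist1h1a. By this ratio H3 was therefore more spread than H1. Hist1h3c was at 15.4, 13.5 and 13.4 FPKM in WT and at 223, 59.6 and 77.0 in cKO (log2 fold change 2.76 ± 0.45, adjusted p = 0.00162, and 2.18 without cKO 1). Hist1h3a followed it closely, with 14.4, 16.6 and 12.98 FPKM in WT and 195, 60.4 and 77.0 in cKO (log2 fold change 2.65 ± 0.40, adjusted p = 0.0012, and 2.15 without cKO 1). In cKO 2 and cKO 3 the levels of this pair were nearly the same, although Hist1h3a encodes the H3.1 protein and Hist1h3c the H3.2 protein.

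Hist1h3d showed the largest change of an H3 gene, from 0.69, 1.74 and 0.52 FPKM to 49.1, 7.21 and 12.1 (log2 fold change 3.19 ± 0.63, adjusted p = 0.00364, and 2.43 without cKO 1), and Hist1h3h the smallest, from 5.47, 3.13 and 4.38 FPKM to 72.9, 14.4 and 18.9 (log2 fold change 2.43 ± 0.55, adjusted p = 0.00689, and 1.73 without cKO 1). The SE of these changes was larger than the difference between any neighbours in the class, so the order within H3 was not resolved. Genes for H3.1 (Hist1h3a, Hist1h3g, Hist1h3h and Hist1h3i) lay at 2.65, 2.63, 2.43 and 2.83, and those for H3.2 at 2.60 to 3.19, so that the ranges overlapped. The only member of the class with a poly(A) signal near an annotated end, Hist2h3c1, was at or near 0 in all libraries. Of its windows of 1 read length 0% are unique to it, so that its reads may have been assigned to other genes.

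H4 genes nearly all encode the same protein. All 12 tested members rose, with a median log2 fold change of 2.35 (1.80 without cKO 1). Hist1h4d was at 19.0, 18.5 and 16.3 FPKM in WT and at 262, 75.8 and 85.5 in cKO (log2 fold change 2.67 ± 0.44, adjusted p = 0.00169, and 2.10 without cKO 1). Hist1h4f rose most, from 9.42, 6.71 and 7.32 FPKM to 291, 49.8 and 66.2 (log2 fold change 3.51 ± 0.60, adjusted p = 0.00209), and without cKO 1 its change was 2.74. Both genes had their highest value in cKO 1 and no overlap between the groups.

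Hist1h4i rose least of the H4 genes. It was the highest H4 gene in WT, at 48.6, 47.2 and 52.0 FPKM, and reached 78.0, 77.0 and 82.3 in cKO (log2 fold change 0.67 ± 0.07, adjusted p = 0.0003, and 0.68 without cKO 1). The 3 cKO libraries were nearly level, with cKO 1 at 1.01 times cKO 2. At the same FPKM total its change was 0.12 (adjusted p = 0.217), and after correction for GC content and length it was 0.19 (adjusted p = 0.0359).

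**Figure D2:**
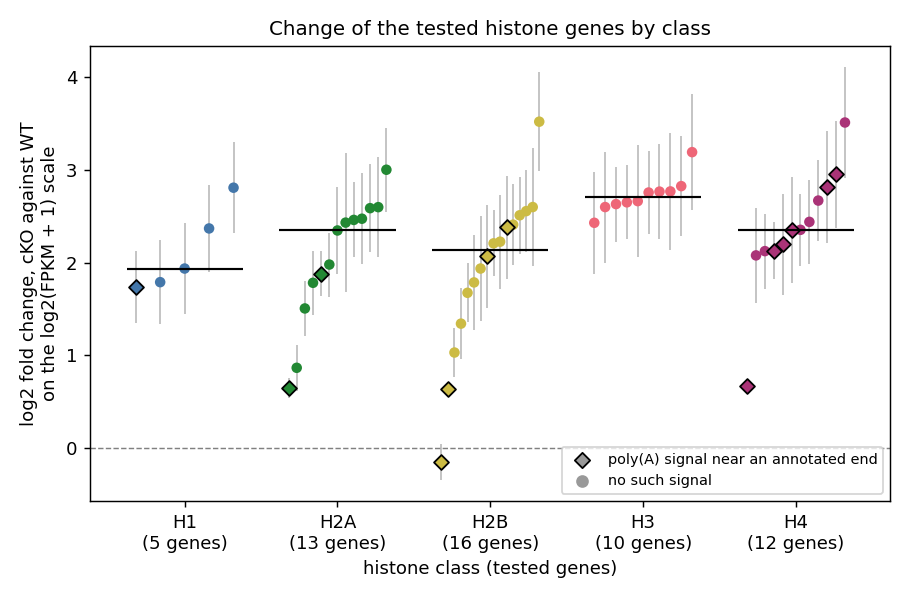
Log2 fold change (cKO against WT, on the log2(FPKM + 1) scale) of the 56 tested histone genes, by class. Points are genes, grey lines are the SE, black bars the class medians, and black-edged diamonds mark genes with a poly(A) signal near an annotated end. All genes but Hist3h2ba lie above 0, and the lowest points above it are Hist2h2be at 0.64, Hist3h2a at 0.65, Hist1h4i at 0.67 and Hist2h2ab at 0.86.

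Summed over all 68 genes, histone RNA amounted to 693, 690 and 681 FPKM in the WT libraries and to 5916, 1712 and 2204 in cKO 1, cKO 2 and cKO 3. The sums in cKO were 8.60, 2.49 and 3.20 times the WT mean, and thus differed more among the cKO libraries than cKO 2 differed from WT. As a share of all FPKM, histone genes rose from 0.129-0.132% in WT to 0.748%, 0.244% and 0.259% in cKO 1, 2 and 3.

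The classes did not gain equally. H3 went from 51.2-53.3 FPKM in WT to 960, 221 and 296 in cKO, which was 18.3, 4.21 and 5.64 times the WT mean. H4 reached 10.6, 2.85 and 3.80 times its WT mean, and H1 8.65, 2.23 and 3.46 times. H2A, at 5.68, 2.15 and 2.65 times, and H2B, at 6.78, 2.18 and 2.40 times, gained least. H3 therefore made up 7.52-7.70% of histone FPKM in WT and 12.9-16.2% in cKO, with no overlap. The share of H4 went from 22.1-23.4% to 26.0-27.9%, that of H2A from 21.5-22.7% to 14.5-19.0%, and that of H2B from 29.8-30.9% to 22.7-26.5%. The share of H1 overlapped between the groups, at 17.2-17.7% in WT and 15.6-18.8% in cKO. These shares were not tested.

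Much of the difference between classes lay in the Hist3 cluster. Hist3h2a and Hist3h2ba together gave 25.1-26.3% of all histone FPKM in WT and 4.40%, 13.4% and 8.41% in cKO 1, 2 and 3. With the Hist3 genes left out, H2A stood at 11.9, 3.19 and 4.62 times its WT mean and H2B at 10.6, 2.94 and 3.60 times, close to H4, while H3 was still highest in each cKO library. This comparison is uneven, since H4 and H1 kept abundant genes with the smallest change of their class. Hist1h4i gave 49.3 of 156 FPKM in the WT mean of H4, and Hist1h1c 61.2 of 120 in that of H1.

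**Figure D3:**
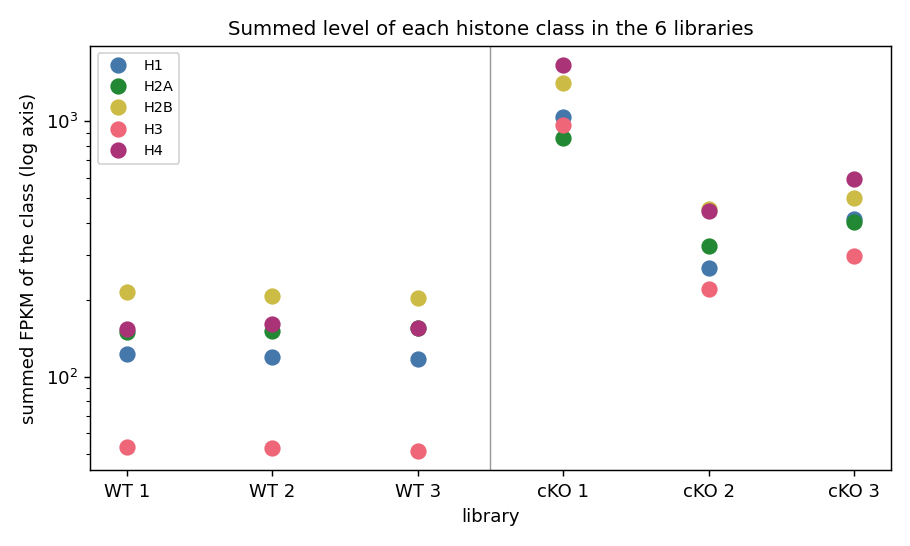
Summed FPKM of each histone class (log axis) in the 6 libraries, 1 point per class and library. In WT the H3 sum is the lowest by far, at 51.2 to 53.3, and in cKO 1 it lies above that of H2A.

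Genes with a poly(A) signal near an annotated end made up more of the histone RNA in WT than in cKO. The 17 genes with a signal gave 51.9-52.1% of histone FPKM in WT and 25.6%, 36.2% and 32.8% in cKO 1, 2 and 3. The genes without one include some whose annotated transcript may end before a signal. Of 13 tested genes with a signal 12 rose, beside 35.8% of all genes, with a median log2 fold change of 2.07 (1.52 without cKO 1). Of 43 tested without one all 43 rose, with a median of 2.44 (1.85 without cKO 1). The change ran from -0.16 to 2.96 among genes with a signal, so some of them changed as much as those without. Hist1h4j, with a signal that ends 5 bases before its annotated end, went from 2.97, 2.503 and 3.95 FPKM to 83.9, 13.8 and 24.7 (log2 fold change 2.96 ± 0.58, adjusted p = 0.00357, and 2.24 without cKO 1).

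The cKO libraries were far apart in most members. The median ratio of cKO 1 to cKO 2 was 4.16 over the tested members and 0.99 over all genes tested. It was below 1.5 in only 4 of the 56 members, Hist1h4i (1.01), Hist3h2ba (1.00), Hist2h2be (1.13) and Hist3h2a (1.22), the genes whose poly(A) signals are printed above. In the other members it ran from 1.71 in Hist1h2bc to 9.82 in Hist1h2af. The median was 3.23 in tested genes with a signal and 4.21 in those without, and 9 of the 13 with a signal lay above 1.5, such as Hist1h4a at 6.19.

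The order of the libraries was shared by most members. In 50 of the 56 tested members (89.3%) cKO 1 was above cKO 3, cKO 3 above cKO 2, and cKO 2 above every WT library, an order found in 10.2% of the other genes tested. A ratio of cKO 1 to cKO 2 of at least 3, with cKO 2 above every WT library, was found in 44 members (78.6%) and in 10 of 10270 other genes (0.0974%). These 10 were Rmrp, Rpph1, Snora74a, Snora23, Snord15b, Snora78, Gm20594, Gm6682, Oaz1-ps and Hba-a1, named after their values were seen. The first 6 of them are small RNAs that do not carry a poly(A) tail in their mature form. Of these, Snora74a, Snora23, Snord15b and Snora78 were not called (limma, adjusted p = 0.0541, 0.188, 0.0602 and 0.276). Snora23 and Snora78 were listed at 0 in cKO 3.

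Other RNAs without a poly(A) tail were therefore read beside the histone genes. Rmrp, the RNA of RNase MRP, was at 129, 145 and 133 FPKM in WT and at 4094, 653 and 749 in cKO (log2 fold change 3.21 ± 0.65, adjusted p = 0.00415). Rpph1, the RNA of RNase P, was at 240, 242 and 224 FPKM in WT and at 5606, 945 and 968 in cKO (log2 fold change 2.87 ± 0.65, adjusted p = 0.0067). Terc, the telomerase RNA, went from 1.66, 1.12 and 0.83 FPKM to 9.79, 3.77 and 4.09 (log2 fold change 1.55 ± 0.32, adjusted p = 0.00437). All 3 were highest in cKO 1, like the histone genes, and did not overlap between the groups.

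Of the 19 tested RNAs of this kind, from 128 listed, 6 rose and 3 fell, beside 35.8% and 29.8% of all genes, with a median log2 fold change of 1.87. The median was 0.81 without cKO 1 and 0.69 after correction for GC content and length. The list was not uniform. The ribosomal precursor Rn45s was at 6028 to 6118 FPKM in WT and listed at 0 in all cKO libraries. Snora16a and Snora64 were also called lower (adjusted p = 0.0492 and 0.0394) and were listed at 0 in cKO 1 and cKO 3. Rnu12, of the minor spliceosome, went from 0, 0 and 28.3 FPKM to 74.9, 39.1 and 36.7. Among 1236 other tested genes with transcripts of 1000 bases or less, the median log2 fold change was 0.44 and the median ratio of cKO 1 to cKO 2 was 1.01. How far the carry-over of RNA without a poly(A) tail into the poly(A)-enriched libraries had a part in the histone values was not tested. The labels name no library batch. For these RNAs, Rn45s included, and for the histone genes, library handling thus cannot be told apart from genotype.

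**Figure D4:**
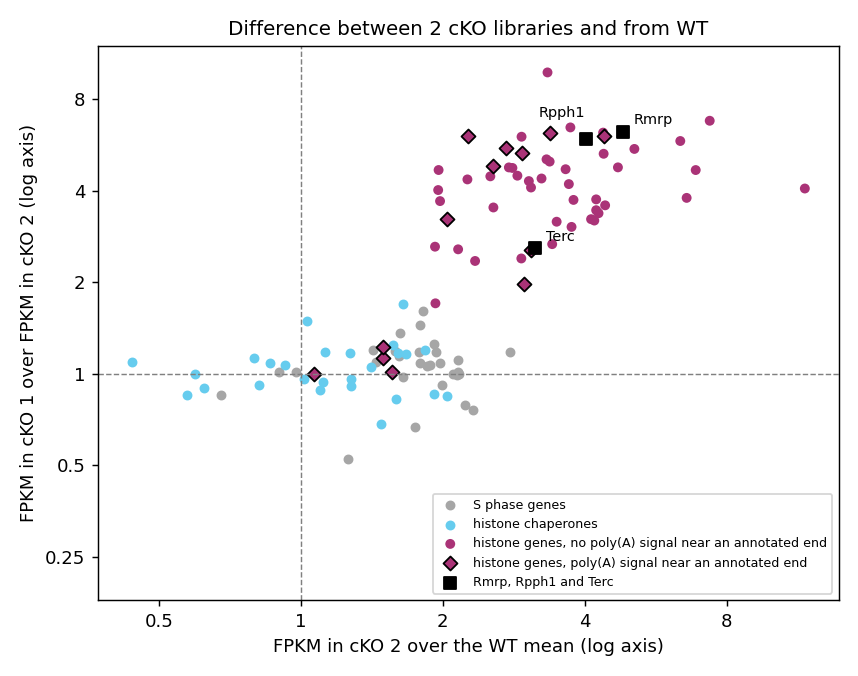
FPKM in cKO 1 over cKO 2 (vertical, log axis) against FPKM in cKO 2 over the WT mean (horizontal, log axis), 1 point per tested gene. Most histone genes lie at 3 or more on the vertical axis, together with Rmrp and Rpph1, while the S phase genes and histone chaperones lie near 1, as do 4 histone genes with a poly(A) signal.

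The genomic clusters did not differ much in their change, apart from Hist3. Hist1 (chr13:21715763-23934851) had 46 of 54 genes tested and all 46 rose, with a median of 2.42. Hist2 (chr3:96219865-96270132) had 6 of 10 tested, all higher, with a median of 2.36, and Hist4h4, the single Hist4 gene (chr6:136801553-136804415), rose by 2.35. In Hist3 (chr11:58948920-58956830) the 3 changes were -0.16, 0.65 and 1.34, the last for the pseudogene Hist3h2bb-ps. Within Hist1 the group at chr13:21715763-21837530 had a median of 2.43 over 13 tested genes and that at chr13:23531050-23764406 a median of 2.44 over 28. The group at chr13:22035164-22043676, which holds Hist1h4i, had a median of 1.79 over 5 tested genes.

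H2A and H2B genes often share a promoter from which they are read in opposite directions. There were 13 such pairs with start sites 173 to 306 bases apart, counting that of Hist3h2a with the pseudogene Hist3h2bb-ps. In the 10 pairs with both genes tested both rose. Since 55 of the 56 tested members rose, beside 35.8% of all genes, this count says nothing of the pairing itself. The changes of partners differed by a median of 0.445 on the log2 scale, which was not compared with members that are not partners. The closest pair was Hist1h2ai with 2.46 and Hist1h2bl with 2.41. The pair furthest apart was Hist2h2ac, with 2.60, and Hist2h2be, with 0.64. Hist2h2ac went from 3.95, 6.78 and 7.10 FPKM in WT to 99.98, 20.01 and 31.77 in cKO, while its partner was at 22.5 FPKM at most. In the annotation, Hist2h2ac ends 57 bases past its stem-loop and holds no poly(A) signal there, whereas the transcript of 2620 bases of Hist2h2be holds the signal printed above and no consensus stem-loop.

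The promoters shown are the one shared by this pair and that of Hist1h4f, as the pair of neighbours with the least alike response and the H4 gene with the largest change. They are RefSeq promoter windows of GRCm38.p6, from 250 bases before to 50 after the start, with capitals for TATAAA on the strand of the gene, for CCAAT on either strand (ATTGG on the other) and for the octamer ATTTGCAT on either strand (ATGCAAAT on the other).
Hist2h2ac: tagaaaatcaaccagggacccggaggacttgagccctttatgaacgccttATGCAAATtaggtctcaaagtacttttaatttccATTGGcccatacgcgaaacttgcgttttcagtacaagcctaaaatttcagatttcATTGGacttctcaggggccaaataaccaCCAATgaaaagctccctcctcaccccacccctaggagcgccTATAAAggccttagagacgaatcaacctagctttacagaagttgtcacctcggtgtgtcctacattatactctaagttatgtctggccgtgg
Hist1h4f: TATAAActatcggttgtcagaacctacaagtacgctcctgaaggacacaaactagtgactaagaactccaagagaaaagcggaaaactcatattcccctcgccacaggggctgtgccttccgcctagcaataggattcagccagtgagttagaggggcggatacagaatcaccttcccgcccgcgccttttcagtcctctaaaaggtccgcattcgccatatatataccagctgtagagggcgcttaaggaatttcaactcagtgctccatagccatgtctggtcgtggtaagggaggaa
The windows are chr3:96220831-96221130 (-), which also holds the start of Hist2h2be at 96221119 on the other strand, and chr13:23551619-23551918 (-). In Hist1h4f the TATAAA stands at the far upstream end of the window. Of the 68 genes 61 had a window. CCAAT was found in 52 of them (85.2%), against 37.4% of 32817 promoters of the same length, and in all H1, H2A, H2B and H3 windows but only 3 of 12 H4 windows. TATAAA was found in 49.2% against 8.32%, and the octamer in 21.3% against 1.74%, in 7 H2A and 6 H2B windows. These letter matches are descriptions of the windows and say nothing of factor binding.

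Near-identical copies limit how reads could be assigned. In 43 members at least 50% of the windows of 1 read length were unique among annotated transcripts, and 39 of the 40 tested among these rose, with a median log2 fold change of 2.35. In 19 members 10 to 50% were unique, and all 15 tested rose, with a median of 2.43. The remaining 6 had under 10% unique windows, and only Hist1h3h of these was tested. Values of single genes with few unique windows are uncertain, while the change was as large in the members with mostly unique sequence.

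The 12 members under the filter were Hist1h1t, Hist1h2aa, Hist1h2ao, Hist1h2ap, Hist1h2ba, Hist1h2bq, Hist1h2br, Hist1h4n, Hist2h2aa1, Hist2h2aa2, Hist2h3c1 and Hist2h3c2. Hist1h2aa and Hist1h2ba, the testis-specific H2A and H2B genes, were listed at 0 in every library, as were Hist1h2br and Hist1h4n. Hist1h2ao reached 2.21 FPKM in cKO 1 and was close to 0 elsewhere, and the other 7 stayed below 1 FPKM in all libraries. The ranking of the 56 tested members by level was largely shared, with Spearman's rho of 0.94 to 0.97 between WT libraries, 0.85 to 0.96 between cKO libraries and 0.83 between the group means. These ranks are across genes that share library, depth and partly sequence, and are given as a description.

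Genes that make and degrade histone mRNA had a smaller median change than the histone genes. Of 27 tested, 16 rose and 7 fell, beside 35.8% and 29.8% of all genes, with a median log2 fold change of 0.33. Slbp, the stem-loop binding protein, was at 76.0, 79.4 and 79.7 FPKM in WT and at 138, 182 and 173 in cKO (log2 fold change 1.05 ± 0.11, adjusted p = 0.000303). It rose most of the list, and unlike the histone genes it was lowest of the cKO libraries in cKO 1. Npat, the coactivator of histone transcription, went from 8.60, 8.66 and 9.61 FPKM to 13.2, 13.6 and 12.01 (log2 fold change 0.48 ± 0.08, adjusted p = 0.00152), and Casp8ap2, a component of histone locus bodies, rose by 0.57 ± 0.06 (adjusted p = 0.000366).

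Lsm10 and Lsm11 are subunits of the U7 ribonucleoprotein. Lsm10 rose from 18.3, 16.8 and 17.6 FPKM to 31.1, 25.9 and 28.6 (log2 fold change 0.66 ± 0.09, adjusted p = 0.000669), and Lsm11 fell from 4.45, 3.93 and 3.50 FPKM to 3.12, 2.58 and 2.90 (log2 fold change -0.36 ± 0.10, adjusted p = 0.0183). The call of Lsm11 was lost after correction for GC content and length (-0.11, adjusted p = 0.357), after quantile normalization (-0.19, adjusted p = 0.15) and without WT 1 or WT 2 (adjusted p = 0.0759 and 0.0567). Zfp473, a zinc finger protein of the U7 complex, was near 1 FPKM in both groups (log2 fold change -0.02, adjusted p = 0.897). Eri1, an exonuclease that trims histone mRNA, rose by 0.62 ± 0.07 (adjusted p = 0.000368). Upf1, a helicase needed for histone mRNA decay, fell most, from 45.3, 46.7 and 46.1 FPKM to 15.3, 20.99 and 13.8 (log2 fold change -1.44 ± 0.14, adjusted p = 0.000262). At the same FPKM total, which moved the median of all genes to -0.45, 1 gene of the list was called higher and 12 lower.

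Among 26 histone chaperones, which carry histones to DNA, 13 rose and 6 fell, beside 35.8% and 29.8% of all genes, with a median log2 fold change of 0.34. Scaled to the same FPKM total, 7 were called higher and 12 lower, with a median of -0.21, and after quantile normalization 8 and 8. Nasp, a carrier of H3 and H4, went from 66.8, 67.7 and 66.6 FPKM to 131, 112 and 140 (log2 fold change 0.91 ± 0.09, adjusted p = 0.000322). Asf1b, which hands H3 and H4 dimers on, rose by 0.92 ± 0.08 (adjusted p = 0.000178). Chaf1b, of chromatin assembly factor 1, rose most, from 15.0, 15.8 and 16.3 FPKM to 43.8, 25.9 and 39.4 (log2 fold change 1.13 ± 0.18, adjusted p = 0.00167). Its partner Chaf1a had a change of 0.33 ± 0.14 that was not called (adjusted p = 0.0683), with cKO 2 at 18.5 FPKM near the WT level of 17.4 to 18.5. Cabin1, of the HIRA complex that deposits histones outside S phase, fell most, by 1.11 ± 0.08 on the log2 scale (adjusted p = 0.000114).

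Replacement variants, which are mostly made also outside S phase and from polyadenylated mRNA, gave a mixed picture. Of 10 tested, 4 rose and 2 fell, beside 35.8% and 29.8% of all genes, with a median log2 fold change of 0.16. With libraries at the same FPKM total, 1 was called higher and 5 lower, with a median of -0.40. H2afz went from 740, 745 and 751 FPKM to 1497, 1411 and 1835 (log2 fold change 1.07 ± 0.13, adjusted p = 0.000533). Its FPKM alone was above the summed FPKM of the H2A cluster genes in every library. Poly(A) enrichment can recover polyadenylated and stem-loop mRNA unequally, so this does not compare their levels in the cells. H2afx, which is read both as stem-loop and as polyadenylated mRNA, was at 188 to 193 FPKM in WT and at 152 to 172 in cKO (log2 fold change -0.22 ± 0.08, adjusted p = 0.0375). This call was lost when any 1 WT library was left out (adjusted p = 0.111 to 0.139), and the change was 0.16 after correction for GC content and length. H3f3b was at 923 to 930 FPKM in WT and at 907, 1393 and 1047 in cKO, with no call (adjusted p = 0.22), and H1fx fell by 0.59 ± 0.16 (adjusted p = 0.0127).

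Genes of DNA replication rose in the same libraries without the excess in cKO 1. Of 29 S phase genes, 25 rose and 1 fell, beside 35.8% and 29.8% of all genes, with a median log2 fold change of 1.02, and their median ratio of cKO 1 to cKO 2 was 1.07. At the same FPKM total 20 were called higher and 4 lower, with a median of 0.46. Slbp is counted both here and among the processing genes. Ccne2, cyclin E2, rose most, by 1.42 ± 0.09 (adjusted p = 9.1e-05), and Cdt1, a licensing factor, fell by 0.68 ± 0.08 (adjusted p = 0.000403), a call that was lost after correction for GC content and length (log2 fold change -0.17, adjusted p = 0.0887). Whether the share of cells in S phase had a part in the histone values was not tested.

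Markers of other cells were read for the same reason. Beside the 35.8% of all genes called higher and 29.8% lower, 7 of 10 DP markers rose and 1 fell, of 6 tested markers of earlier and cycling thymocytes 4 fell, and of 6 mature single-positive markers 1 rose and 4 fell. At the same FPKM total the DP markers had 1 higher and 3 lower calls, with a median of -0.08. Of the B cell markers 1 of 6 passed the filter and rose (Cd79b), 3 of 6 myeloid markers and 1 of 6 thymic epithelial markers passed it and none of these was called. All 3 tested erythroid markers of 6 rose, and the summed level of the 6 was 2.13 to 3.04 FPKM in WT and 15.4 to 31.9 in cKO. With GC content and length corrected, 1 of the 3 was called higher. The erythroid sum was highest in cKO 3, not in cKO 1 as for the histone genes. The part of any such cells in the histone values was not tested.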

How the data were processed

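Poly(A)-enriched RNA of 6 libraries (3 WT, 3 cKO) was sequenced with a directional kit, and the authors mapped the reads with TopHat to mm10 and deposited FPKM values from Cufflinks, 1 table per library. The versions of TopHat and Cufflinks, the annotation and the strand setting of the counting were not given in the sources used here. The authors tested read counts with DESeq2, which was not repeated because the deposited unit is FPKM.

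FPKM values were scaled by median-of-ratios factors (1.00 to 1.01), and genes at 1 FPKM or more in at least 3 libraries were tested with limma 3.58.1 in R 4.3.3 on log2(FPKM + 1) with a trended eBayes fit and Benjamini-Hochberg adjustment over all 10326 genes at 0.05. Fold changes on this scale understate the change of genes with low values. The script was tested on simulated data. Members and gene lists were chosen with earlier results of these data known. Named genes were, per class, the 2 members with the highest mean and those with the highest and lowest change, every tested member not called higher, a fixed set of processing, chaperone and variant genes, and the extremes of each other list; exceptions are stated. Groups came from the genotype labels. Replicate numbers shared by the groups did not pair the libraries, with correlations of their deviations of -0.02 to 0.04. Positions and transcripts are from GENCODE M21 and promoters from RefSeq, both on the mm10 assembly. Depth was estimated from the FPKM steps of low genes with an assumed fragment length of 200 bases. The read totals themselves were not used here. A set of 16 alternative settings was computed for each result. No columns were left out. A listed marker gene is not reported here.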

Additional observations from a re-analysis of the deposited data

How the results depend on the processing

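Over 16 alternative settings the median log2 fold change of the tested histone genes ran from 1.77 (without cKO 1) to 2.83 (without cKO 2), and between 52 and 55 of them were called higher when any 1 library was left out. Without cKO 1, 35.9% of all genes were called higher. With the replicate number as a block, although the numbers did not pair the libraries, 55 members were called higher, 3513 genes in all were higher and 2954 lower, and among the named genes only H2afx lost its call (adjusted p = 0.0899). With WT counted as 1 sample, 19 members were called higher (H1 1, H2A 5, H2B 5, H3 3, H4 5), 739 genes in all were higher and 902 lower, and higher and lower calls were 1 and 2 for processing genes, 6 and 2 for chaperones, and 3 and 1 for other RNAs without a poly(A) tail. This setting has fewer samples in the fit. At the same FPKM total 1 member, Hist3h2ba, was called lower, 903 genes in all were higher and 6182 lower, and the calls were 1 and 12 for processing genes and 7 and 12 for chaperones. Quantile normalization left 8 chaperones higher. Of the other RNAs without a poly(A) tail, 1 was lower with no filter, 3 were higher and 0 lower with at least 1 FPKM in all 6 libraries, which tests fewer genes, and 1 to 3 were lower when 1 library was left out.

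The direction of 6 named genes turned under some settings. When 1 library was left out, Hist3h2ba ran from -0.29 without cKO 1 to 0.089 without cKO 3. Zfp473 was at 0.28 after quantile normalization, 0.082 after the GC content and length correction, and from -0.116 to 0.045 when 1 library was left out. At the same FPKM total Npat was at -0.032, Chaf1a at -0.21 and H3f3b at -0.32, and H3f3b was at -0.47 after quantile normalization. H2afx was at 0.16 after the GC content and length correction. The cause of these turns was not tested. The low estimated depth of cKO 1 limits members near 1 FPKM, and by this estimate 1 fragment on a transcript of 500 bases is worth 0.16 FPKM in WT and 0.25 in cKO 1.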
